A study of Mus musculus with 6 samples.

Results

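The genes described here are those of the TGF-beta and BMP feedback arm: the ID transcription regulators Id1, Id2 and Id3, the inhibitory SMADs Smad6 and Smad7, the ligand Tgfb1 and its receptors Tgfbr1 and Tgfbr2. They were chosen by name, with earlier results of these data known. Every non-control probe of a mouse microarray whose gene name was one of these 8 was used. That gave 8 of the array's 36095 gene names and 10 of its 55681 probes, 1 per gene for 6 genes and 2 each for Tgfbr1 and Tgfbr2. All 10 were well above background on all 6 arrays, so every member entered the test.

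TGF-beta binds the receptor encoded by Tgfbr2, which recruits and phosphorylates the kinase receptor encoded by Tgfbr1. The activated complex phosphorylates receptor SMADs, which enter the nucleus with the co-SMAD SMAD4 and bind short DNA elements, while BMPs do the same through their own receptors. ID proteins are helix-loop-helix proteins without a DNA-binding region that hold E proteins away from E-box elements, and their genes are well known BMP targets. SMAD6 and SMAD7 are induced by the pathway and inhibit it, SMAD6 mainly on the BMP side and SMAD7 on both. In macrophages TGF-beta is known as a restraint on inflammatory activation.

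Macrophages were grown for 7 days from C57BL/6 mouse bone marrow in medium with 10% serum and 20% L929-conditioned medium, which supplies the growth factor M-CSF. The tested cells received 100 µM ADP, a nucleotide that damaged and activated cells release, for 6 h, and the others are labelled as a control treatment of the same 6 h (the protocol text shared by all samples speaks of ADP and does not say what the control received). Each group had 3 samples, which per the submitters' design text are separate experiments with different donors, and each RNA was read on a one-colour Agilent array of its own. The comparison asks which transcripts differ after exposure to extracellular ADP.

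On each array 50.3% to 51.9% of 59305 non-control spots were well above background, 0 spots were saturated, and the 75th signal percentile ran from 455 to 549 on the ADP arrays and over the same range on the control arrays. All 10 listed macrophage markers were well above background on all arrays. The arrays came from 2 slides: slide 1 held ADP 1 with controls 1 and 2, and slide 2 held ADP 2 and 3 with control 3. Slides were set apart by the first principal component (44.9% of the variance), so slide values stand beside the pooled ones. The number of arrays limits the precision of all values. A level below is the log2 processed signal minus the array's 75th percentile, so that 0 is that percentile. A difference is ADP minus control in log2 units. Levels are compared within a probe only.

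Probes of 3 members are shown, because the values turn on what these short sequences capture: Id1, which had the largest difference, Id3, whose probe matches 2 separate blocks of the genome, and Tgfb1, whose probe was spotted 10 times. They are written 5′ to 3′ in lower case, and of the Id1 probe the first 30 bases are given.
Id1 probe, chr2:152563083-152563142, plus strand, mm9: attgttttacaatagttctatgggggtgag
Id3 probe, chr4:135700075-135700249, plus strand, mm9: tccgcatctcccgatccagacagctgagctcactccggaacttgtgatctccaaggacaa
Tgfb1 probe, chr7:26489877-26489936, plus strand, mm9: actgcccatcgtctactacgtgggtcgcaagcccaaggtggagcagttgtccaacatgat
Each probe is 60 bases long. The Id3 probe spans 175 genomic bases, with 115 bases between its 2 blocks. The whole Id1 probe is AT-rich, with 28.3% G and C, against 55.0% for each of the other 2.

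All 8 members read lower with ADP on average, except that Tgfb1 read 0.057 higher without scaling between arrays, and none passed the test over all genes. The median of their differences was -0.31, while the median of all 19575 features tested was 0.00437 and 49.2% of features were below 0. In 4 members, Id1, Id2, Smad7 and Tgfbr2, all 3 ADP arrays lay below all 3 control arrays, which held for 9.72% of features. The same 4 had an unadjusted p under 0.05, as did 6.18% of features in that direction. Because the members were chosen with earlier results of these data known, these shares are a description and not a test. After Benjamini-Hochberg adjustment limma called 0 members and 0% of features, and the smallest adjusted p of any feature was 0.260. An exact permutation test of 3 arrays against 3 cannot go below p = 0.1. These are bulk samples, in which fewer cells of a type and less RNA per cell cannot be told apart.

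**Figure D1:**
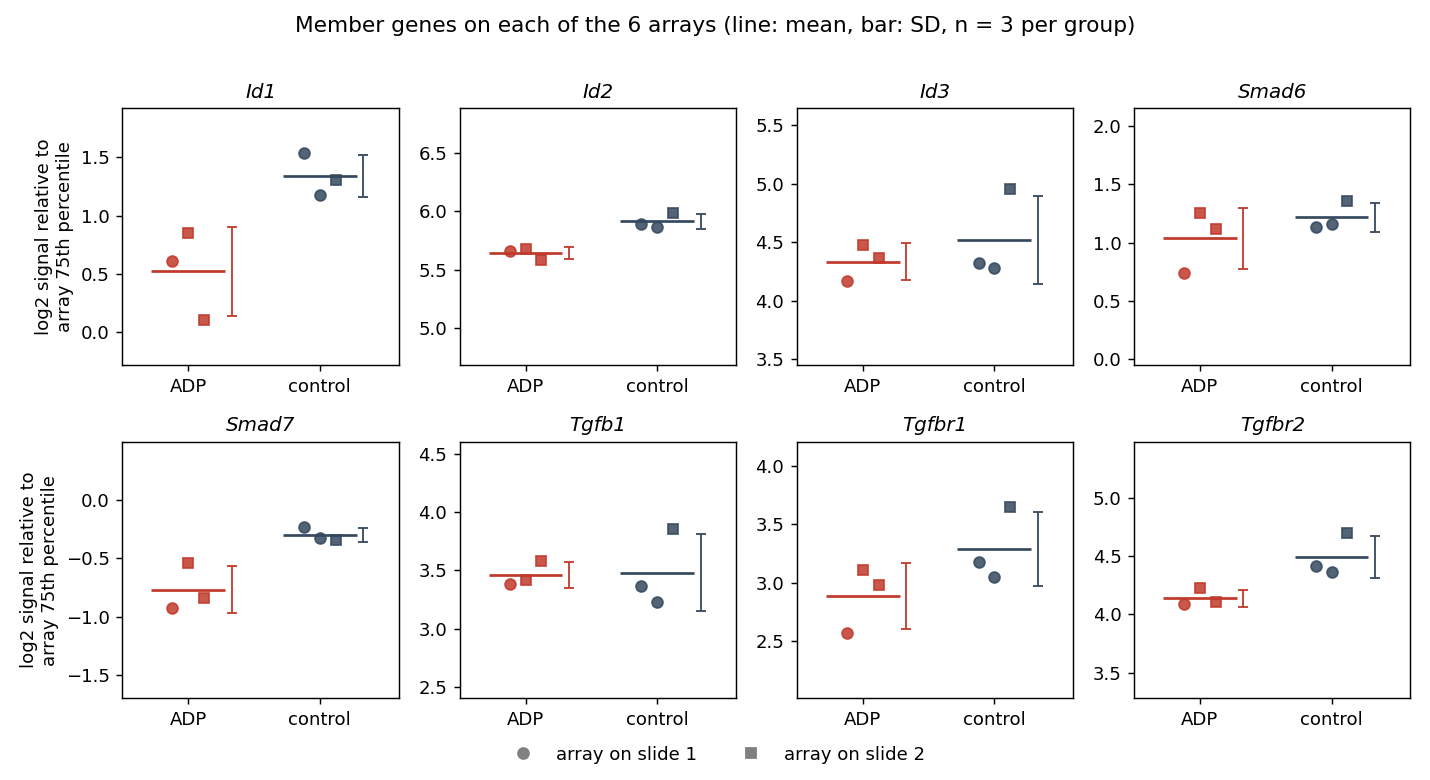
Level of each member (brighter probe) on every array, in log2 signal relative to the array's 75th percentile, with ADP left of control, the mean as a line, the SD as a bar (n = 3 per group) and the slide as the point shape. Every panel covers the same log2 span. The ADP points of Id1, Id2, Smad7 and Tgfbr2 lie below all control points, and control 3 is the highest point of every panel except Id1 and Smad7.

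Levels of several members differed between the slides, and the slide cannot be told apart from the donors or experiments on it. With the slide as a block the median difference was -0.38, and 7 of 8 members, all but Tgfb1, had an unadjusted p under 0.05 with ADP lower, against 13.6% of features. The share of features higher with ADP at that p was 10.8%, with 0 members. No member passed after adjustment in that fit, in which the smallest adjusted p of any feature was 0.0734. In 7 of 8 members, all but Tgfb1, ADP read lower within slide 1 and within slide 2 both, as in 32.4% of features. In an alternative fit, which joins the slide block to intensity-trended, robust variances, 4 members fell with ADP at an adjusted p under 0.05: Tgfbr1, Tgfbr2, Id2 and Smad7. That fit called 9.91% of features, 5.38% lower and 4.52% higher. Its count of members was 0 without control 1, 0 without control 3 and 1 without ADP 3, and 3 to 5 without any other array. Calls over all 19575 features changed too: 0 without control 1, 63 higher and 34 lower without control 3, and 271 higher and 276 lower without ADP 3. They were 825 higher and 1066 lower without control 2, 725 and 936 without ADP 1, and 886 and 922 without ADP 2. Over all alternatives run, the adjusted p was 0.0128 to 0.897 for Tgfbr1, 0.0218 to 0.873 for Tgfbr2, 0.0307 to 0.893 for Id2 and 0.0292 to 0.832 for Smad7.

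Id1 encodes the ID protein most often read as a marker of BMP signalling. Its level was 0.61, 0.85 and 0.11 on ADP arrays 1 to 3, against 1.53, 1.18 and 1.30 on control arrays 1 to 3. All ADP arrays lay below all controls, and ADP 3 was the lowest. The means were 0.52 ± 0.38 with ADP and 1.34 ± 0.18 in controls (SD, n = 3 each), a difference of -0.82 ± 0.21 (SE; 95% interval -1.32 to -0.31), which is 56.8% of the control signal. The unadjusted p was 0.00711 and the adjusted p 0.262. Only 0.771% of all features had a lower difference. This value differed little between slides, at -0.75 within slide 1, -0.82 within slide 2 and -0.79 ± 0.23 with the block (adjusted p = 0.119).

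Id2 encodes an ID protein that is needed for several lymphoid and dendritic lineages. Its probe (chr12:25778904-25778963, minus strand, mm9) read 5.66, 5.68 and 5.58 with ADP, against 5.89, 5.87 and 5.98 in controls. The groups did not overlap and each was narrow, so this small difference was larger than the spread within either group. The means were 5.64 ± 0.05 with ADP and 5.91 ± 0.06 in controls (SD, n = 3 each). The difference was -0.27 ± 0.10 (SE; 95% interval -0.51 to -0.04; adjusted p = 0.331), or 82.7% of the control signal. It was -0.22 within slide 1, -0.35 within slide 2 and -0.29 ± 0.08 with the block (adjusted p = 0.110, and 0.0307 with trended, robust variances).

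Id3 encodes an ID protein that responds to both BMP and TGF-beta in many cells. It read 4.17, 4.47 and 4.36 with ADP, against 4.32, 4.28 and 4.95 in controls. The groups overlapped, and control 3 stood above the other 5 arrays. The pooled difference of -0.18 ± 0.21 (SE; 95% interval -0.68 to 0.31) did not exceed the spread between arrays (adjusted p = 0.769), and without control 3 it was 0.034. Control 3 lay 0.65 above the mean of the controls on slide 1, the largest such gap among the 8 members. The difference was -0.13 within slide 1 and -0.54 within slide 2. Blocked by slide it was -0.33 ± 0.11 (adjusted p = 0.158, and 0.0659 with trended, robust variances). Of the 3 ID genes, then, Id1 and Id2 separated the groups on every array and Id3 did not. The differences were not tested against each other.

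Smad7 encodes the inhibitory SMAD that blocks receptor SMADs at the receptor and brings ubiquitin ligases to it. Its probe (chr18:75555371-75555430, plus strand, mm9) read -0.93, -0.54 and -0.84 with ADP, against -0.23, -0.32 and -0.35 in controls. All ADP arrays lay below all controls. The means were -0.77 ± 0.20 with ADP and -0.30 ± 0.06 in controls (SD, n = 3 each), and the difference was -0.47 ± 0.13 (SE; 95% interval -0.78 to -0.15), or 72.3% of the control signal. The unadjusted p was 0.0103 and the adjusted p 0.279. It was -0.65 within slide 1, -0.35 within slide 2 and -0.50 ± 0.13 with the block (adjusted p = 0.0957, and 0.0468 with trended, robust variances).

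Smad6 encodes the inhibitory SMAD that acts chiefly on BMP receptors and on SMAD1. Its probe (chr9:63800980-63801039, minus strand, mm9) read 0.74, 1.25 and 1.12 with ADP, against 1.13, 1.16 and 1.36 in controls. ADP 1 was the lowest array, ADP 3 lay just below the lowest control, and ADP 2 lay among the controls. The pooled difference of -0.18 ± 0.16 (SE; 95% interval -0.57 to 0.20; adjusted p = 0.716) was within the spread between arrays, and without ADP 1 it was -0.035. It was -0.40 within slide 1, -0.18 within slide 2 and -0.29 ± 0.09 with the block (adjusted p = 0.139). Smad7 thus separated the groups and Smad6 did not, and that contrast was not tested.

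Tgfb1 encodes the ligand itself, made as a latent complex that must be activated outside the cell. It read 3.38, 3.41 and 3.58 with ADP, against 3.37, 3.23 and 3.85 in controls. ADP arrays lay inside the range of the controls. The means were 3.46 ± 0.11 with ADP and 3.48 ± 0.33 in controls (SD, n = 3 each), and the difference was -0.02 ± 0.18 (SE; 95% interval -0.45 to 0.41; adjusted p = 0.972). Its 10 spots per array agreed to an SD of 0.0166 to 0.0424 log2, below the spread between arrays of either group. The difference was 0.088 within slide 1 and -0.35 within slide 2, and -0.13 ± 0.13 with the block (adjusted p = 0.589). No direction can be given for this gene.

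Tgfbr2 encodes the receptor that binds the ligand first. Its brighter probe (chr9:115997155-115997214, minus strand, mm9) read 4.09, 4.22 and 4.10 with ADP, against 4.42, 4.36 and 4.69 in controls. The groups did not overlap. The means were 4.14 ± 0.07 with ADP and 4.49 ± 0.18 in controls (SD, n = 3 each), a difference of -0.35 ± 0.13 (SE; 95% interval -0.65 to -0.05; adjusted p = 0.331), or 78.3% of the control signal. It was -0.30 within slide 1, -0.53 within slide 2 and -0.42 ± 0.09 with the block (adjusted p = 0.0801, and 0.0218 with trended, robust variances). The dimmer probe (chr9:115999496-115999555) read -1.15, -0.89 and -1.24 with ADP, against -0.80, -0.86 and -0.94 in controls. Its groups overlapped, through ADP 2 and control 3, and its difference was -0.22 ± 0.13 (adjusted p = 0.552). Blocked by slide it was also -0.22 (adjusted p = 0.350, and 0.338 with trended, robust variances), so it did not pass where the brighter probe did. Both probes thus read lower on average, and the dimmer one by less.

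Tgfbr1 encodes the kinase receptor that signals to SMAD2 and SMAD3. Its brighter probe (chr4:47427736-47427795, plus strand, mm9) read 2.57, 3.11 and 2.98 with ADP, against 3.18, 3.05 and 3.65 in controls. The groups overlapped, because ADP 2 on slide 2 lay above control 2 on slide 1. The pooled difference was -0.40 ± 0.21 (SE; 95% interval -0.91 to 0.10; adjusted p = 0.508), with means of 2.89 ± 0.28 with ADP and 3.29 ± 0.32 in controls (SD, n = 3 each). It was -0.23 without control 3 and -0.25 without ADP 1. No other member gained as much precision from the slide block. Slide 2 read higher than slide 1 by 0.48 among ADP arrays and by 0.53 among controls, and the difference was -0.55 within slide 1 and -0.60 within slide 2. Blocked by slide it was -0.57 ± 0.09 (unadjusted p = 0.000760), rank 159 of 19575 features by p. The adjusted p was 0.0734, and 0.0210 with trended, robust variances. The dimmer probe (chr4:47424946-47425005) read -1.75, -1.56 and -1.82 with ADP, against -0.91, -1.35 and -1.48 in controls. There the groups did not overlap, with a difference of -0.46 ± 0.18 (adjusted p = 0.364), at -0.62 within slide 1 and -0.20 within slide 2. Its slide-blocked difference was -0.41 (95% interval -0.86 to 0.03; adjusted p = 0.240, and 0.184 with trended, robust variances), so the dimmer probe did not pass in the fit that called the brighter one.

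**Figure D2:**
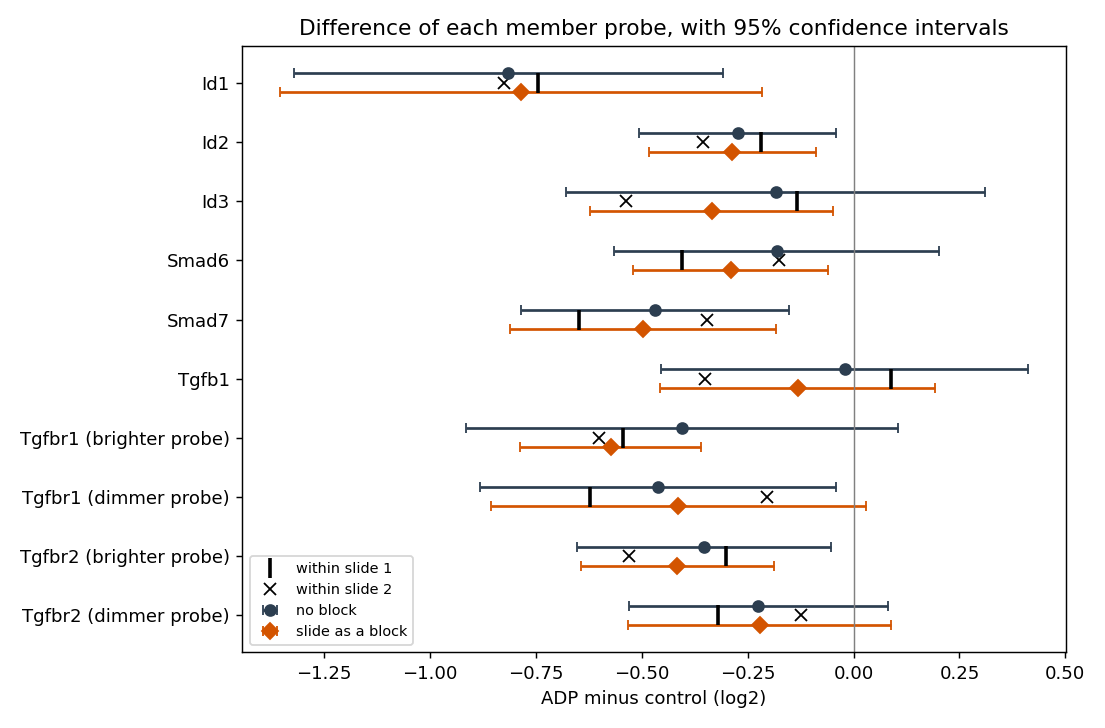
Difference of every member probe, ADP minus control in log2 units, with 95% confidence intervals from limma without a block and with the slide as a block, and the differences within each slide. All pooled differences lie below 0, from -0.82 for Id1 to -0.02 for Tgfb1 (0.057 without scaling between arrays), and the interval of the brighter Tgfbr1 probe clears 0 once the slide is a block.

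The members differed over the arrays in the size or the course of their changes, which the measure used here does not separate. After centring each gene on its own mean, without scaling its spread, the closest pair was Id2 and Tgfbr2. Their root mean square difference was 0.0856 log2 over the 6 arrays. Id3 and Tgfb1, both high in control 3, followed at 0.131, and Id1 and Tgfb1 were the farthest apart at 0.528. Among 12524 named genes, the 5 closest to Id1 were Fnbp1l at 0.0747, Peg12 at 0.0860, Sorbs3 at 0.0875, Cdca7l at 0.0879 and Cnksr3 at 0.0912. Genes chosen this way have differences near that of Id1 by construction. Theirs ran from -0.89 for Sorbs3 to -0.68 for Cdca7l, and none passed (adjusted p = 0.260 to 0.268). Sorbs3 was dim, at -4.27, -4.25 and -4.91 with ADP, against -3.42, -3.81 and -3.53 in controls. Fnbp1l, an actin-regulating adaptor, read 2.55, 2.74 and 2.20 with ADP, against 3.51, 3.27 and 3.30 in controls.

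The promoters of the closest pair, Id2 and Tgfbr2, are shown with the site of Smad6, the only one of the 6 members searched whose start region holds the full SMAD palindrome GTCTAGAC. Sequences are from RefSeq, build GRCm38.p6, written on the strand of the gene. Capitals mark AGAC or its reverse GTCT (the core of the SMAD element), GGCGCC (an element bound by BMP SMADs) and, in Smad6, the palindrome. Each promoter is the 250 bases before the annotated start, and the Smad6 stretch has 4 palindrome bases before the start and 4 after it.
Id2 promoter, chr12:25096093-25096342, minus strand: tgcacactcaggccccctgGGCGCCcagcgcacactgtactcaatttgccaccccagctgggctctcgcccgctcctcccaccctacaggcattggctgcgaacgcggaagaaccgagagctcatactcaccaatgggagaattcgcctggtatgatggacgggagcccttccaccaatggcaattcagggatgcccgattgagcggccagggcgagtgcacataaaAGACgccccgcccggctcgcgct
Tgfbr2 promoter, chr9:116175364-116175613, minus strand: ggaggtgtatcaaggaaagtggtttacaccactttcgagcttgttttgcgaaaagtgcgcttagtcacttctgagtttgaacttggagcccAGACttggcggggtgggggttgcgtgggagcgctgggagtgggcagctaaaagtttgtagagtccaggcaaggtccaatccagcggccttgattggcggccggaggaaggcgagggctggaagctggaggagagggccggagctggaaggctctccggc
Smad6 start site, chr9:64022045-64022074, minus strand: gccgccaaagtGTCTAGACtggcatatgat
Motifs were searched on both strands from 250 bases before to 50 bases after the start. The palindrome GTCTAGAC, which contains AGAC on both strands, was found in 0.213% of 32851 promoters (70). GGCGCC was found in 11.9% of promoters, among them that of Id2, 231 bases before the start, and 1 of 2 listed for Tgfbr1, 233 bases before it. AGAC is so short that 88.0% of promoters held it, as did those of Id2, Id3, Smad6, Tgfb1 and Tgfbr2 and the other Tgfbr1 promoter. The E-box CANNTG, the element of the E proteins that ID proteins bind, was in 72.3% of promoters and in those of Id2, Smad6 and Tgfbr2 and the other one of Tgfbr1. The promoter table had no entry for Id1, and that of Smad7 was not used here. A match is a description of the sequence. Smad6, with the palindrome, overlapped between groups. Of the members searched that lack it, Id2 and the brighter Tgfbr2 probe did not overlap, while Id3, Tgfb1 and the brighter Tgfbr1 probe did. A relation between motifs and differences was not tested.

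Other genes of the pathway were read as 7 lists with 72 of 89 genes passing the filter on dim probes. They did not lean as the members did: 39 differences were above 0 and 33 below, with a median of 0.04. The lists, like the members, were chosen with earlier results of these data known. No gene passed after adjustment in the fit without a block or in that with the slide block alone. At an unadjusted p under 0.05 there were 8 higher and 6 lower with ADP, against 6.55% of all features higher and 6.18% lower. In 17 genes all ADP arrays lay above all controls and in 9 below, which held for 9.67% and 9.72% of features. The slide-blocked fit with trended, robust variances called 6 higher and 7 lower, against 4.52% of all features higher and 5.38% lower. Among those described next, it called Tgfb3 (adjusted p = 0.0212), Lrrc32 (0.0229) and Tgm2 (0.0215) higher. It called Grem1 (0.0355) and Zeb1 (0.0270) lower, and did not call Hey1 (0.0629). Without control 1 that fit called 0 features.

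**Figure D3:**
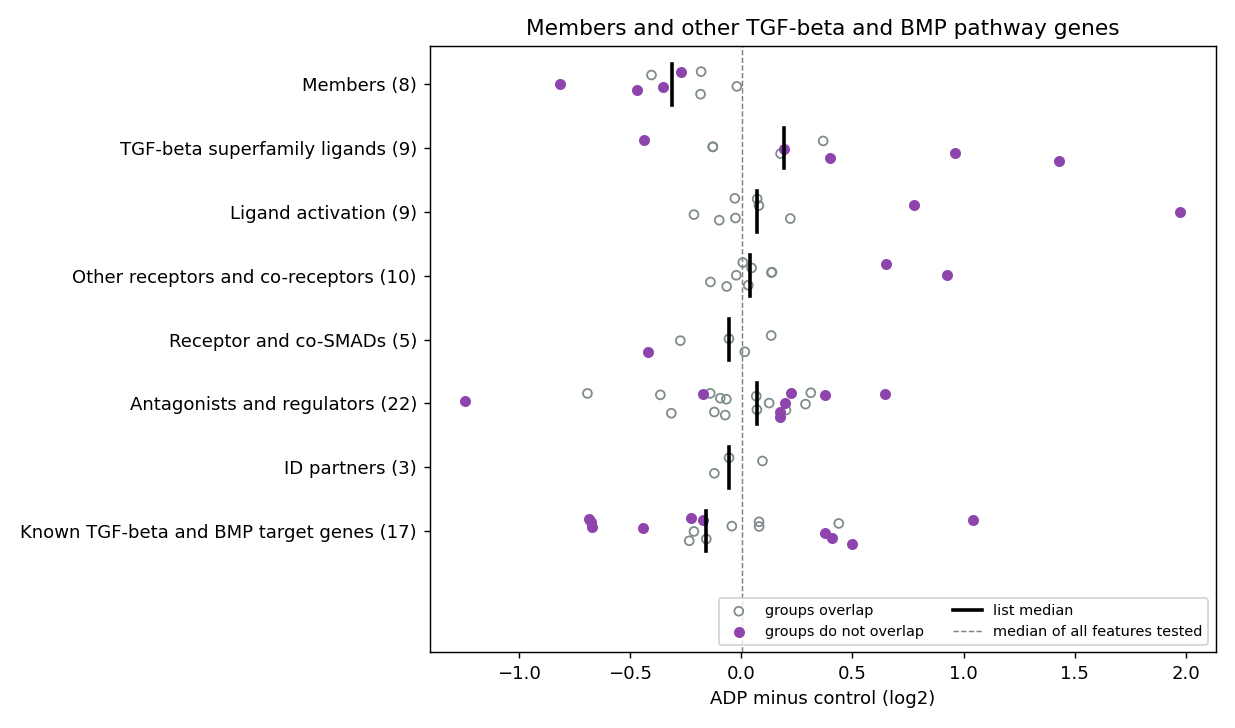
Difference of each gene, ADP minus control in log2 units, for the members and the 7 other pathway lists, with the number of genes that passed the filter in brackets, filled points where the groups do not overlap and a bar at the list's median. The 8 members lie below 0 (Tgfb1 at 0.057 without scaling between arrays) around a median of -0.31, while the other lists lie on both sides with medians from -0.16 to 0.19.

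Of 9 ligands of the family that were measured, 6 were above 0 and 3 below (median 0.19), and 2 higher and 0 lower had an unadjusted p under 0.05. Tgfb3, a sister ligand of Tgfb1, read 0.52, -0.01 and 0.69 with ADP, against -0.77, -0.53 and -1.79 in controls, and the groups did not overlap. Its difference was 1.43 ± 0.36 (SE; adjusted p = 0.261), at 1.17 within slide 1 and 2.13 within slide 2. Of 9 genes that store or activate the ligand, 5 were above 0 and 4 below (median 0.07), and 1 higher and 0 lower had an unadjusted p under 0.05. Lrrc32, which encodes the surface anchor GARP for latent TGF-beta, read -0.74, -0.77 and -0.37 with ADP, against -1.49, -1.26 and -1.45 in controls. It had a difference of 0.78 ± 0.15 (adjusted p = 0.260) with no overlap between groups.

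Of 10 other receptors, 7 were above 0 and 3 below (median 0.04), and 2 higher and 0 lower had an unadjusted p under 0.05. Of 5 receptor and co-SMADs, 2 were above 0 and 3 below (median -0.06), with 0 higher and 1 lower, Smad1, which transduces BMP signals (difference -0.42 ± 0.16, adjusted p = 0.356). Of 22 antagonists and regulators, 12 were above 0 and 10 below (median 0.07), and 1 higher and 1 lower had an unadjusted p under 0.05. Grem1, which encodes the secreted BMP antagonist gremlin, read -2.12, -1.50 and -2.50 with ADP, against -0.60, -0.73 and -1.06 in controls. The groups did not overlap, and the difference was -1.24 ± 0.27 (adjusted p = 0.260). The 3 E-protein genes, whose products are the partners of ID proteins, had differences of 0.09 for Tcf3, -0.06 for Tcf4 and -0.12 for Tcf12, with overlapping groups and 0 at an unadjusted p under 0.05.

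Known targets of TGF-beta and BMP read both ways. Of 17 measured, 7 were above 0 and 10 below (median -0.16), and 2 higher and 4 lower had an unadjusted p under 0.05. Tgm2, which encodes transglutaminase 2, read 7.18, 6.74 and 7.33 with ADP, against 6.22, 6.42 and 5.49 in controls, a difference of 1.04 ± 0.28 (adjusted p = 0.268). Zeb1, a repressor of epithelial genes, read -2.55, -2.60 and -2.73 with ADP, against -2.04, -2.00 and -1.78 in controls, a difference of -0.69 ± 0.12 (adjusted p = 0.260), which was -0.42 with normexp background correction. Hey1, a repressor that BMP and Notch induce, read -1.20, -1.14 and -1.40 with ADP, against -0.73, -0.86 and -0.83 in controls, a difference of -0.44 ± 0.11 (adjusted p = 0.261). In these 3 genes the groups did not overlap.

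Markers of other cells were summed as signal over the array's 75th percentile. Macrophage markers ran from 1193 to 1619 with ADP and from 991 to 1346 in controls. Of the sums given here, those for neutrophils and dendritic cells did not overlap between groups. Neutrophil markers (5 of 6 well above background on all arrays) summed to 26.1 to 31.7 with ADP and 22.6 to 24.4 in controls. Most of that sum was S100a8, with a difference of 0.32 (adjusted p = 0.345), and all 5 that passed the filter were above 0. Dendritic cell markers, with Xcr1 not well above background on any array, summed to 0.389 to 0.453 with ADP and 0.172 to 0.382 in controls. Most of that sum was Ccr7, with a difference of 1.00 (adjusted p = 0.316), while Flt3 differed by -0.15 (adjusted p = 0.748). Both sums thus read mainly 1 gene each. Sums for fibroblasts were 12.3 to 13.6 with ADP and 11.7 to 12.9 in controls, for endothelial cells 4.69 to 6.80 with ADP and 4.09 to 5.40 in controls, and for megakaryocytes and platelets 181 to 210 with ADP and 163 to 189 in controls. T cell markers, of which only Cd3e was well above background, summed to 0.458 to 1.04 with ADP and 0.530 to 0.978 in controls, with Cd3d, Cd3g and Cd8a not well above background on any array. Cd79b, a subunit of the B cell receptor, differed in the members' direction and read 2.23, 2.35 and 2.32 with ADP, against 2.60, 2.41 and 2.97 in controls, without overlap. Its difference was -0.36 ± 0.16 (SE; adjusted p = 0.424), and -0.46 with the slide block (adjusted p = 0.0309 with trended, robust variances). The part of these shifts in the members' differences was not tested.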

How the data were processed

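RNA of 3 ADP-treated and 3 control macrophage samples was measured on one-colour arrays. Groups were taken from the titles of the samples. The deposited spot intensity is the processed signal of Agilent Feature Extraction 10.7.1.1, per the file headers, with background subtracted within the array and no scaling between arrays. The deposited value table holds the same intensity (within 0.001 log2 for 100% of 55681 probes), on a linear scale with its direction known. Its column medians were 20.7, 21.9 and 22.7 for ADP 1 to 3 and 18.7, 20.3 and 22.0 for controls 1 to 3.

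Control spots were dropped, and so were outlier spots, except where every spot of a probe was marked as one. The spots of a probe were averaged, and the log2 of the deposited intensity was taken minus the array's 75th percentile. Probes stayed in (26587) where at least 1 group had all 3 arrays well above background. The brightest probe stood for its gene, giving 19575 features. Groups were compared with limma 3.58.1 (lmFit, eBayes) in R 4.3.3, two-sided, with Benjamini-Hochberg adjustment over all features at 0.05. The fits without a block and with the slide block were run on simulated data. The planted changes were larger than any member's difference, and trended, robust variances were not tried there. Exon and UTR annotation of the probes was not used here, and cross-hybridisation was not tested. Probe coordinates are mm9 from the files. RefSeq GRCm38.p6 gave promoters and names: 26582 probes by accession, 2602 by current symbol and 492 by synonym, while 26005 were left with the array's own name.

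The members and lists were chosen with earlier results of these data known. Results of 2 marker lists are not reported here. Genes named beyond the members are the 6 pathway genes with the smallest unadjusted p, since none passed, and the 5 most like Id1 in pattern, Id1 being the member with the smallest p. Others were chosen after their values were seen. Both of the 2 slides held both groups, and the slide was an alternative block. Other alternatives were quantile, median and no scaling, normexp background correction (offset 50), filters, all or averaged probes, trended and robust variances, a replicate block, and each array left out. The slide block with every probe, and with trended and robust variances and an array left out, was added after the data were seen. Replicate numbers are not said to pair samples: deviations of same-numbered arrays correlated at 0.423, -0.398 and 0.431 across features.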

Additional observations from a re-analysis of the deposited data

How the results depend on the processing

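Across 29 alternatives the difference stayed below 0 for 6 of the 8 members: Id1 (-0.98 to -0.61), Id2 (-0.35 to -0.20), Smad6 (-0.40 to -0.035), Smad7 (-0.65 to -0.35), Tgfbr1 (-0.61 to -0.23) and Tgfbr2 (-0.53 to -0.25). These alternatives are not separate checks. Changing the filter or the variances, using every probe, or blocking by replicate left each member's difference as it was. Without control 3 or ADP 1, the slide-blocked fit repeated the difference within a single slide. Without a block, Id3 ranged from -0.30 to 0.034 with 1 array left out (0.034 without control 3) and Tgfb1 from -0.15 to 0.16. In the slide-blocked fit with trended, robust variances they ranged from -0.54 (Id3, adjusted p = 0.0238) and -0.35 (Tgfb1), both without ADP 1, to -0.13 and 0.088. Tgfb1 was 0.057 in the unscaled value table, and without a block 0.16 without control 3, 0.018 without ADP 1 and 0.00298 without ADP 2. It was 0.088 within slide 1, which is also its value in the slide-blocked fit with trended, robust variances without control 3. The causes were not tested.

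Features at an unadjusted p under 0.05 numbered 2492 (48.6% of them lower with ADP), 1554 in the value table (21.0% lower), 4759 with the slide block, 5111 with trended, robust variances added and 4879 with quantile normalization added. They ranged from 1163 (without ADP 3) to 2982 with 1 array left out, with 1381 without control 1. Members under that threshold numbered 4, against 2 with median scaling (2031 features) and 3 with normexp background correction (2151 features). They numbered 5 with averaged probes (2561 features), 1 in the value table and 7 in each slide-blocked fit on 6 arrays. With 1 array left out and no block they numbered 2 to 3 (2 without control 1, control 3 or ADP 3). Pathway genes numbered 14, against 26 with the slide block, 28 with trended, robust variances added and 26 with quantile normalization added, and 8 (without ADP 3) to 16 with 1 array left out. After adjustment, the slide block with trended, robust variances called 1939 features, 4 members and 13 pathway genes. It called 0 features, and so 0 pathway genes, without control 1, 63 higher and 34 lower without control 3, and 271 higher and 276 lower without ADP 3. With every probe as a feature it called 3 members, and 1031 features higher and 1150 lower. With 1 array left out it called 0 to 5 members, with 5 to 7 at an unadjusted p under 0.05. Features at that unadjusted p were then fewest without control 1 (1659 higher, 2029 lower) and most without ADP 1 (2320 higher, 3108 lower). Every other fit called 0 features at an adjusted p under 0.05.

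The labels do not say whether replicate numbers pair the samples, and the arrays do not settle it: deviations of same-slide pairs correlated at 0.423 to 0.469 and those of pairs across slides, 1 same-numbered pair among them, at -0.602 to -0.268. With the replicate number as a block limma called 0 features after adjustment, and 2494 features and 3 members at an unadjusted p under 0.05. Not every array correlated best with its own number. Without a block the 95% intervals of Id3, Smad6, Tgfb1 and the brighter Tgfbr1 probe included 0, and with the slide block, among brighter or single probes, that of Tgfb1 alone did.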

Other observations

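The pathway genes called in the slide-blocked fit with trended, robust variances, beyond those described above, were chosen after their values were seen. Higher with ADP in that fit were Inhba, which encodes a subunit of activins, at 1.21 (slide-blocked log2 difference; adjusted p = 0.0215), Tgfbr3, the co-receptor betaglycan, at 1.17 (adjusted p = 0.0210) and Cdkn2b, which encodes the CDK inhibitor p15, at 0.62 (adjusted p = 0.0231). Lower with ADP were Ccn1 at -0.82 and Ccn2 at -0.84, both genes of matricellular proteins (adjusted p = 0.0228 and 0.0218), Gdf3 at -0.58 (adjusted p = 0.0226), the latent TGF-beta binding protein gene Ltbp2 at -0.43 (adjusted p = 0.0231) and the ubiquitin ligase gene Wwp1 at -0.51 (adjusted p = 0.0399). That fit called 0 features without control 1, so none of these calls held there. With normexp background correction and no block, the difference was 0.51 for Tgfbr3, against 0.93 with the processed signal, and -0.44 for Ccn1, against -0.68. Without the block none of these passed, with adjusted p from 0.288 for Ccn1 to 0.779 for Ltbp2.

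Thbs1, which encodes the matrix protein thrombospondin 1, an activator of latent TGF-beta, had the largest difference of the pathway genes and did not pass. It read 6.75, 6.12 and 6.67 with ADP, against 5.30, 5.95 and 2.36 in controls. The groups did not overlap, and control 3 stood far below the other 5 arrays. The difference was 1.97 ± 0.89 (SE; adjusted p = 0.432), at 1.12 within slide 1 and 4.03 within slide 2.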
